A study of Mus musculus with 4 samples.

Results

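Imprinted genes of embryonic growth were described across whole mouse embryos labelled wild type (WT) or *Dyrk2*-/- at embryonic day 8.5 (E8.5) and E10.5. The members were 10 genes, *Igf2*, *H19*, *Igf2r*, *Dlk1*, *Meg3*, *Cdkn1c*, *Phlda2*, *Peg3*, *Mest* and *Grb10*, found by the gene name that the array gives each probe. They had 24 of the 56604 probes with a value on all arrays and were 10 of 37325 named genes. Every group was 1 one-colour Agilent array of total RNA from whole embryos of strain C57BL/6, so 4 arrays on 1 slide stood for the WT and *Dyrk2*-/- genotypes at both stages. The mutant alleles were small deletions made with a CRISPR/Cas9 nickase, and the sources used here do not give which deletion, or how many embryos, each RNA came from. With 1 array per group, no comparison between arrays of a stage or a genotype has a replicate check.

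Imprinted genes are transcribed mainly from a single parental allele, chosen by DNA methylation that was set in the egg or sperm. Many of them control how large the embryo and placenta grow: genes read from the paternal copy, such as *Igf2*, tend to promote growth, and genes read from the maternal copy, such as *Igf2r*, *Cdkn1c*, *Phlda2* and *Grb10*, tend to restrain it. Most lie in clusters in which a control region and a long non-coding RNA set the expression of several neighbours.

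Levels are given as log2 of the processed intensity of a probe minus the 75th percentile of its array, so 0 is the brightness of the probe at that percentile. Differences are taken between arrays for the same probe. Levels of different probes are put together only to pick the brightest probe and to sum a marker list, and do not rank genes by their amount of RNA. *Dyrk2*, the targeted gene, is measured by 2 probes. The brighter of them read 0.06 on the array labelled WT and 0.76 on the array labelled *Dyrk2*-/- at E8.5, then −0.31 and 0.34 at E10.5. That probe was thus higher on the arrays labelled *Dyrk2*-/-, by log2 ratios of 0.70 and 0.65, both past 1.5-fold. The other probe read −0.23 and −0.20 at E8.5, then −0.28 and −0.00 at E10.5. *Dyrk2* transcript was therefore not lower on either array labelled *Dyrk2*-/-, and every genotype ratio rests on the labels. The study does report a loss of DYRK2 protein in *Dyrk2*-/- embryos, at a later stage than those on the arrays. Whether either probe overlaps the deleted bases was not determined, and a small deletion need not remove a transcript.

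The arrays also differed in the levels of tissue markers. Of 12 markers of red blood cells, 11 were at least 1.5-fold higher on the array labelled *Dyrk2*-/- at the earlier stage, 8 were at the later one, and none was lower at that threshold. The summed linear level of these markers was 18.8 on the WT array and 386 on the array labelled *Dyrk2*-/- at E8.5, then 1379 and 1606 at E10.5, with *Hbb-bh1*, an embryonic globin, as the brightest probe by its mean over the 4 arrays. The WT array at E8.5 thus stood apart from the other arrays by its low blood signal. Of 10 mesenchyme markers, 4 were higher at E8.5 and 2 were so 2 days later, and of the neural markers 2 of 9 were higher at E8.5 while 2 of 10 were lower at E10.5. Over all genes, 5.14% were higher and 6.52% lower at E8.5, then 3.51% and 4.22% at E10.5. *Col1a1* and *Postn*, which encode matrix proteins of connective tissue, were higher at both stages, with log2 ratios of 0.75 and 0.69 for *Col1a1* and 0.76 and 1.25 for *Postn*. With spike-in scaling none of the mesenchyme markers reached 1.5-fold at E8.5. Most neural markers lay below 0 at both stages, 7 of 9 and 9 of 10. With that scaling 0 were higher and 6 lower at E8.5, beside 47.6% of all genes lower. At E10.5 the number that were lower ran from 0 with spike-in scaling, beside 2.59% of all genes, to 5 without scaling, beside 6.55%. The part of these marker differences in the ratios of the imprinted genes was not tested, and in RNA of whole embryos fewer cells of a type and less RNA per cell cannot be told apart.

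Between genotypes, the share of imprinted growth genes that differed was near that of all genes, so the counts are no result about the members. At E8.5, 1 of 10 members differed 1.5-fold or more by its brightest probe, *Phlda2*, which was lower on the array labelled *Dyrk2*-/-. Over all 20848 genes measured at that stage, 11.7% differed as much in either direction, 5.14% higher and 6.52% lower. At E10.5, 0 of 10 members differed by that much, beside 7.73% of 21351 genes. The median log2 ratio of the 10 brightest probes was 0.02 at E8.5 but −0.03 at E10.5, and that of all genes −0.02 and −0.00. Leaving out *Phlda2*, the ratios of the 9 other brightest probes lay between −0.25 (*Cdkn1c*) and 0.32 (*H19*) at E8.5. At E10.5 they lay between −0.19 (*Cdkn1c*) and 0.12 (*Dlk1*). For scale, 95% of the differences between spots of the same probe on the same array were under 0.48 on the noisier E8.5 array and under 0.31 on the noisier E10.5 array. Among the brightest probes, only the difference of *Phlda2* at E8.5 exceeded that spread. With spike-in scaling 4 of 10 members were lower at E8.5, *Meg3*, *Cdkn1c*, *Phlda2* and *Peg3*, beside 47.6% of all genes. All 10 then had a ratio below 0, beside 94.2% of all genes, so neither count sets the members apart.

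A limma fit of genotype and embryonic day used all 4 arrays, has 1 residual degree of freedom and borrows its spread from all probes. Its residual is the difference of the genotype ratio between the stages. Its standard errors (SE) and p-values therefore do not measure variation between replicate arrays or embryos. The fit called very few probes of any kind for the genotype. With limma, 0 of the 23 member probes in the fit passed an adjusted p of 0.05, beside 0.0186% of the 32289 probes tested, and 1 passed an unadjusted p of 0.05, beside 4.93% of all probes. Without the intensity trend in its variance prior, the same fit gave 0 member probes at either threshold, beside 5.07% of all probes at the unadjusted one. Without scaling between arrays, 1 member probe passed, with a lower level on the arrays labelled *Dyrk2*-/-. No share of all probes is given for the fit without scaling, so that count is no result about the members. In the main fit so few of all probes passed that a count of 0 says little about the members.

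**Figure D1:**
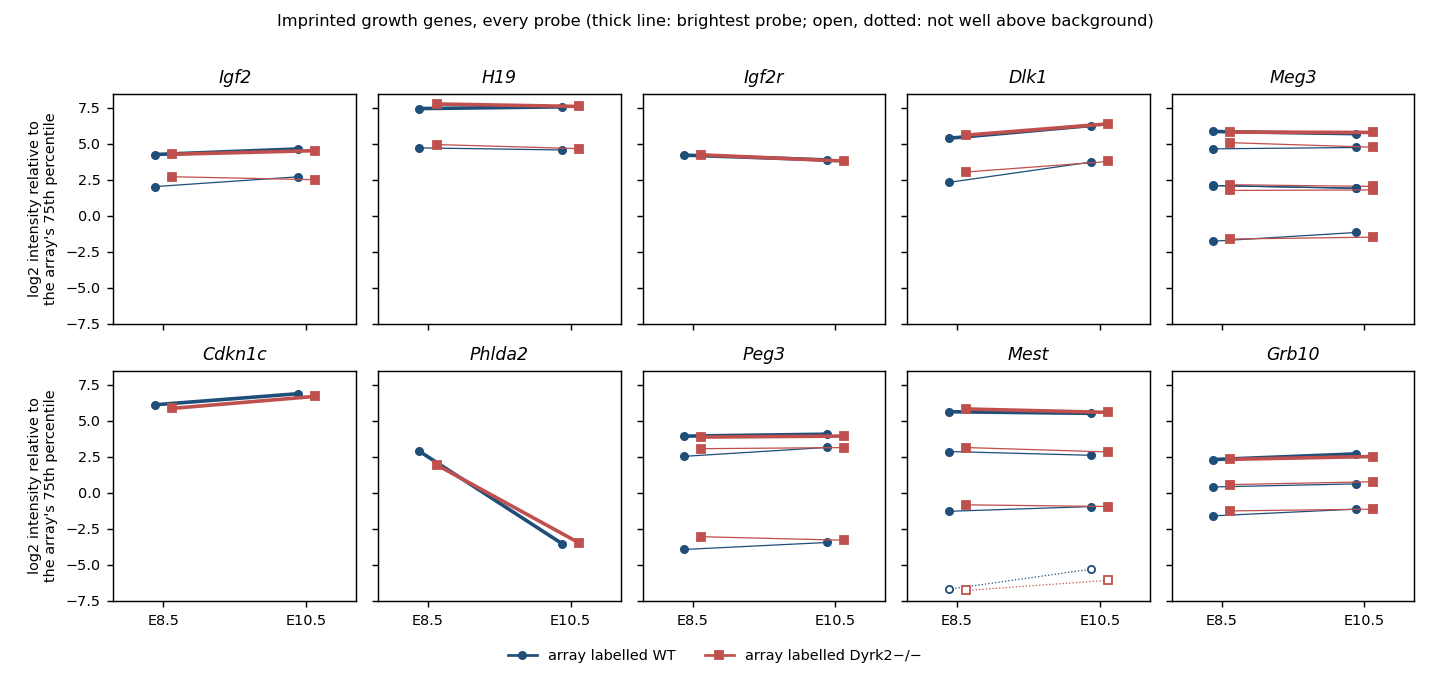
Log2 intensity relative to the 75th percentile of the array (vertical axis) at E8.5 and E10.5 (horizontal axis) for every probe of the 10 genes, with circles for the arrays labelled WT and squares for those labelled *Dyrk2*-/-, 1 array per point. *Phlda2* falls from 2.88 to −3.53 in WT, *Dlk1* and *Cdkn1c* rise, and the thick lines (brightest probes) of the other 7 genes stay within 1.5-fold. Some thin lines of dimmer probes rise more in WT.

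Between stages, 3 members differed 1.5-fold or more in each genotype, *Dlk1* and *Cdkn1c* higher and *Phlda2* lower at E10.5. That is 3 of 10, beside 36.4% of 21788 genes in WT and 31.5% of 21405 genes in the pair labelled *Dyrk2*-/-. Counted this way, with genes above background on 1 array included, the share of changed members was no larger than that of all genes. By direction, 2 of 10 members were higher and 1 was lower in each genotype, beside 18.8% and 17.5% of all genes in WT and 17.6% and 13.9% in the other pair. In the limma fit of embryonic day, 5 of 23 member probes passed the adjusted threshold, beside 35.2% of 32289 probes. Of these 5, 3 rose and 2 fell, beside 15.7% and 19.6% of all probes, and 9 member probes passed an unadjusted p of 0.05, beside 45.5%. The 5 were both *Dlk1* probes, the *Cdkn1c* probe, the *Phlda2* probe and the *Igf2r* probe. With 4 of 23, beside 19.9% of all probes, the fit without the intensity trend kept all of these but *Igf2r*. The choice of scaling mattered more. The spike-in controls moved the median log2 ratio of all genes to −0.57 between genotypes at E8.5 and to 0.59 between stages in the pair labelled *Dyrk2*-/-. With that scaling *Phlda2* was the single member probe past the limma threshold. No share of all probes is given for that fit, so its count is no result about the members. In the pair labelled *Dyrk2*-/- 6 of 10 members were then 1.5-fold higher at E10.5, *Igf2*, *Dlk1*, *Meg3*, *Cdkn1c*, *Peg3* and *Grb10*, beside 50.1% of all genes.

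*Igf2* encodes the insulin-like growth factor that drives growth of the embryo before birth. Its brightest probe read 4.24 on the WT array and 4.25 on the array labelled *Dyrk2*-/- at E8.5, then 4.62 and 4.51 at E10.5. The values were slightly higher at the later stage in both genotypes, by a log2 ratio of 0.38 in WT and 0.25 in the other pair, and limma did not call the difference (0.32 ± 0.12 SE, adjusted p = 0.0596). Whether it reached 1.5-fold depended on the scaling. The WT ratio was 0.62 with quantile normalization and with the deposited table, and that of the other pair was 0.89 with spike-in scaling, all past that size. A second *Igf2* probe behaved differently, with 2.01 and 2.70 at E8.5, then 2.69 and 2.49 at E10.5. On that probe the WT array at E8.5 was the low one of the 4, and the genotype ratio there was 0.68, where the brightest probe gave 0.01.

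*H19*, transcribed from the maternal chromosome beside *Igf2*, is a non-coding RNA and hosts a microRNA. It shares enhancers with *Igf2*, and a methylated control region between the genes decides which of them is read. The brightest probe of *H19* read 7.43 on the WT array and 7.75 on the array labelled *Dyrk2*-/- at E8.5, then 7.55 and 7.57 at E10.5. Its other probe read 4.70 and 4.93, then 4.56 and 4.65. Both *H19* probes were somewhat higher on the array labelled *Dyrk2*-/- at E8.5, with log2 ratios of 0.32 and 0.23, inside the spread of spots, and with spike-in scaling the ratio of the brightest probe turned to −0.23. Neither probe passed limma for the day, with differences of −0.03 and −0.22 and adjusted p of 0.884 and 0.179. The pair of probes is shown because they read the same RNA at different places and gave genotype ratios of the same sign. In the array annotation of build mm9 they lie on the minus strand at chr7:149761492-149761551 and chr7:149762173-149762232.
H19 brighter probe: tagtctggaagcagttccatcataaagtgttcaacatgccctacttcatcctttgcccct
H19 other probe: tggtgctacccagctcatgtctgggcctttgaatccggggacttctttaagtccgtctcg

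*Igf2r* encodes the receptor that binds IGF2 and takes it to lysosomes for degradation, and so lowers the amount of growth factor. Its probe read 4.20 on the WT array and 4.22 on the array labelled *Dyrk2*-/- at E8.5, then 3.87 and 3.78 at E10.5. Both E10.5 values lay below both E8.5 values, and limma called the fall with day (−0.38 ± 0.12 SE, adjusted p = 0.0309). That call was fragile: over the alternatives the adjusted p ran from 0.0116 to 1.0, and with spike-in scaling the log2 ratio of the pair labelled *Dyrk2*-/- turned to 0.21. *Airn*, the non-coding RNA that overlaps *Igf2r* and is read from the paternal copy, gave log2 ratios of −0.24 between stages in each genotype. *Slc22a3*, a transporter gene of the same cluster, was well above background on both E8.5 arrays and on neither E10.5 array, at least 1.77-fold and at least 1.96-fold lower at E10.5 in WT and in the other pair, and *Slc22a2* was well above background on no array.

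Of 22 other genes of the insulin-like growth factor pathway, 20 were measured. At E8.5, the array labelled *Dyrk2*-/- had 0 of 20 higher and 1 lower at 1.5-fold, beside 11.7% of all genes in either direction, and at E10.5 0 of 20 passed, beside 7.73%. With spike-in scaling 7 of 20 were lower at E8.5, beside 47.6% of all genes, and with normexp correction 0 were, beside 1.65%. The gene that was lower in the reported count was *Igfbp6*, a binding protein that prefers IGF2. It read −1.51 and −2.46 at E8.5, then −3.81 and −4.03 at E10.5. Between stages, 5 genes were higher and 2 lower in WT, and 4 higher and 2 lower in the pair labelled *Dyrk2*-/-, beside 36.4% and 31.5% of all genes in either direction. The largest rises were those of *Pappa2*, a protease that cleaves IGF binding proteins, with log2 ratios of 2.78 and 2.75, of *Igfbp7*, with 2.73 and 2.0, and of *Igf1*, the growth factor that acts mainly later in life, with 1.60 and 1.30. The largest falls were those of *Stc2*, an inhibitor of PAPPA proteases, with −3.04 and −3.60, and of *Igfbp6*, with −2.30 and −1.57. The RNA-binding protein gene *Igf2bp1*, whose product binds *Igf2* mRNA, gave −0.49 and −0.46. *Igf1r*, the receptor through which IGF2 signals, gave −0.24 and −0.33. The dimmer probes of *Igf1r* did not agree in sign with each other. The list's median log2 ratio was 0.00 in WT and −0.20 in the other pair, and the latter was 0.44 with spike-in scaling.

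*Cdkn1c* encodes p57, an inhibitor of cyclin-dependent kinases that lets cells leave the cell cycle. Its single probe read 6.11 on the WT array and 5.86 on the array labelled *Dyrk2*-/- at E8.5, then 6.88 and 6.69 at E10.5. Both E10.5 values lay above both E8.5 values. The rise was 1.70-fold in WT and 1.78-fold in the other pair, and limma called it (0.80 ± 0.11 SE, adjusted p = 0.000669). With spike-in scaling the log2 ratios were 0.70 in WT and 1.47 in the other pair, beside the reported 0.77 and 0.83. The limma adjusted p was then 0.586, the highest of a range that began at 1.15e-07 without scaling. Between genotypes the array labelled *Dyrk2*-/- was lower at both stages, with log2 ratios of −0.25 and −0.19, both inside the spread of spots. The sign held under all 6 alternatives for the scaling, the values and the probes, but the size did not. The mean of a gene's probes could change neither, since *Cdkn1c* has a single probe. The E8.5 ratio was −0.80 with spike-in scaling, past 1.5-fold and outside that spread, and the E10.5 ratio was −0.03.

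Of 6 other inhibitors of cyclin-dependent kinases, 4 were higher and 1 lower at E10.5 in each genotype, where 18.8% of all genes were higher in WT and 17.6% in the other pair. The number that were higher was 3 in each genotype with normexp correction, beside 10.4% of all genes in WT and 8.22% in the other pair. With spike-in scaling it was 3 in WT, beside 17.0% of all genes, but 5 in the other pair, beside 50.1%. For the day, limma called 4 rises and 1 fall, beside 35.2% of all probes. *Cdkn2c* read −3.20 and −3.07 at E8.5, then −1.14 and −1.34 at E10.5. *Cdkn1b*, which encodes p27, a close relative of p57, gave log2 ratios of 0.75 and 0.82, near those of *Cdkn1c*. *Cdkn2a* was the exception, well above background at E8.5 only and at least 3.81-fold lower at E10.5 in WT and at least 2.95-fold lower in the other pair. Between genotypes, 1 of 5 differed 1.5-fold at E10.5, *Cdkn2b*, with a log2 ratio of −0.63, beside 7.73% of all genes, and 0 of 5 at E8.5, beside 11.7%. With spike-in scaling 0 differed at E10.5 and 3 were lower at E8.5, where 47.6% of all genes were.

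*Phlda2*, which encodes a small pleckstrin-homology protein that restrains growth of the placenta, was the member that changed most. Its single probe, at chr7:150687464-150687523 on the minus strand of mm9, read 2.88 on the WT array and 1.95 on the array labelled *Dyrk2*-/- at E8.5, then −3.53 and −3.48 at E10.5. The E8.5 arrays were far above the E10.5 arrays in both genotypes, and the genotypes were apart at E8.5 and together at E10.5. The fall with stage was 85.1-fold in WT and 43.0-fold in the other pair, and limma called it (−5.92 ± 0.22 SE, adjusted p = 4.42e-07) under every alternative tried. Its size depended on the processing: the log2 ratios of −6.41 and −5.42 became −5.07 and −4.01 with normexp correction, and that of the pair labelled *Dyrk2*-/- became −4.79 with spike-in scaling. Among genes well above background on both arrays it was the third deepest fall of 19426 in WT and the fourth deepest of 19169 in the pair labelled *Dyrk2*-/-. At E8.5 the array labelled *Dyrk2*-/- was 1.92-fold lower, and 198 of 19402 genes above background on both arrays were lower still. The sign of that difference held under all 6 alternatives, with log2 ratios from −0.89 to −1.49 around the reported −0.94. The mean of a gene's probes could not change it, since *Phlda2* has a single probe. The difference is past 2-fold only with spike-in scaling and without scaling, and no replicate array stands behind it. Whether the genotype ratio differed between the stages was not tested.

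The genes that fell as deeply were named after their values were seen. *Spink1* and *Apoc2*, both of the list of yolk sac endoderm markers, fell more than *Phlda2* in both genotypes, by log2 ratios of −8.15 and −6.93 in WT. The tailbud and gut genes *Cdx1* and *Cdx2* followed it in WT, with −6.20 and −5.83. Yolk sac endoderm is the absorptive epithelium that surrounds the early embryo and makes apolipoproteins and transport proteins. Of its 16 markers on the array, 13 were lower and 1 was higher at E10.5 in WT, beside 17.5% and 18.8% of all genes. In the pair labelled *Dyrk2*-/- 11 of 15 were lower and 2 higher, beside 13.9% and 17.6%. *Afp*, *Apoa2* and *Trf* went the other way, with positive stage ratios in both genotypes.

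The same markers also differed between the genotypes. At E8.5 all 16 had a log2 ratio below 0 on the array labelled *Dyrk2*-/-, under each scaling tried. Of these, 10 were lower by 1.5-fold or more, beside 6.52% of all genes. That number ran from 7 with normexp correction, beside 1.65%, to 16 with spike-in scaling, beside 47.6%. The median of the markers was −0.63, beside −0.02 for all genes and −0.94 for *Phlda2*. *Apoc2* read 3.85 on the WT array and 2.72 on the array labelled *Dyrk2*-/- at E8.5, and *Spink1* read 4.81 and 3.79. At E10.5, 0 of 13 markers differed by 1.5-fold, and 4 were lower without scaling, beside 6.55% of all genes. Of the 13, 11 were again below 0, with a median of −0.29. The summed linear level of the list was 108 and 64.1 at E8.5, then 30.1 and 24.8 at E10.5, with *Afp* as the brightest probe by its mean over the 4 arrays. The endoderm markers *Apoa4* and *Cldn2* were not well above background on either E10.5 array. Their part in the *Phlda2* result was not tested.

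*Phlda2* is best known from the placenta, so markers of trophoblast and of maternal decidua were read as well. Of 15 trophoblast markers on the array, *Tpbpa*, *Syna*, *Synb*, *Ctsq*, *Ctsj* and *Psg21* were well above background on no array. Of the 7 measured at E8.5, 1 was higher and 0 were lower on the array labelled *Dyrk2*-/- (4 lower with spike-in scaling, beside 47.6% of all genes), and the summed level of the list was 2.40 and 2.33 at E8.5, then 1.77 and 1.84 at E10.5, with *Psg16* as the brightest probe by its mean over the 4 arrays. The marker that was higher was *Prl3d1*, a hormone of trophoblast giant cells, well above background on that array alone and at least 6.62-fold higher there than on the WT array. At E10.5, with ratios at their bounds, 2 of 7 were higher between genotypes and 0 lower, beside 3.51% of all genes higher. With normexp correction 0 were higher then. Between genotypes, 1 of 6 decidua markers was higher and 1 lower at E8.5, beside 5.14% and 6.52% of all genes. With spike-in scaling 2 of the decidua markers were lower then, beside 47.6%. At E10.5, 1 of 5 was lower, beside 4.22%. Of the 7 decidua markers, 2 were higher at E10.5 in each genotype, and 4 were lower in WT but 3 in the other pair with ratios at their bounds. By values as read, 18.8% of all genes were higher and 17.5% lower in WT, then 17.6% and 13.9% in the other pair. Their summed level was 9.13 and 9.44 at E8.5, then 6.20 and 6.22 at E10.5, with *Cryab* as the brightest probe by that mean. *Prl8a2*, a hormone of decidual cells, was well above background on both E8.5 arrays, at −3.05 and −1.61, and on neither E10.5 array. Other markers of these lists went the opposite way. *Prl3b1*, a trophoblast hormone, rose by 1.76 and 1.68, and *Hsd3b6* and the decidua marker *Dio2* were well above background at E10.5 only. With ratios at their bounds, 2 of 7 trophoblast markers were higher and 4 lower at E10.5 in WT. In the other pair 2 of 9 were higher and 5 lower. The shares of all genes are those given above for the decidua markers between stages. The part of these markers in the *Phlda2* result was not tested.

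**Figure D2:**
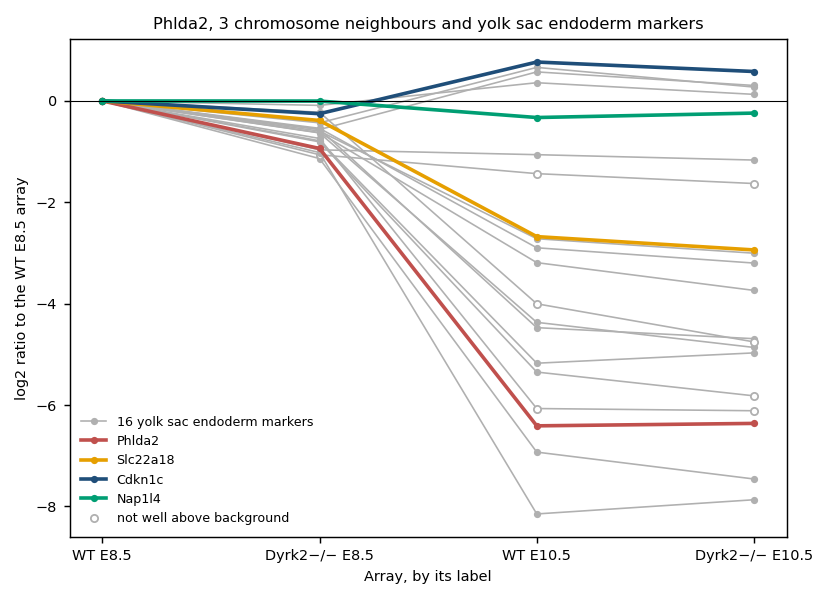
Log2 ratio of each array to the WT E8.5 array (vertical axis) for the 4 arrays in the order of stage and label (horizontal axis), with *Phlda2*, its neighbours *Slc22a18*, *Cdkn1c* and *Nap1l4* in colour, 16 yolk sac endoderm markers in grey and open points where a probe is not well above background. *Phlda2* lies within the range of the endoderm markers on every array.

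The neighbours of *Phlda2* on chromosome 7, named for their place in the imprinted cluster, did not move as a block. *Slc22a18*, which like *Phlda2* is read from the maternal copy, read −1.26 and −1.64 at E8.5, then −3.94 and −4.20 at E10.5, a fall of −2.68 in WT and −2.55 in the other pair. *Ascl2*, a transcription factor gene needed by trophoblast progenitors, also fell, with log2 ratios of −2.36 and −2.02. *Nap1l4*, which encodes a histone chaperone, gave −0.33 and −0.24 by its brightest probe, and *Tssc4* −0.01 and −0.11. The other *Nap1l4* probe disagreed, with stage ratios of 0.93 and 2.88 and a genotype ratio of −1.73 at E8.5. *Cdkn1c* and *Osbpl5* went the other way, the latter with 0.66 and 0.70, and the potassium channel gene *Kcnq1* gave 1.38 and 1.45, with 1.14 and 0.14 on its other probe. *Tspan32*, a tetraspanin gene of blood cells at the edge of the cluster, rose by 3.60 and 3.27. Genes of the cluster thus moved in opposite directions with stage in both genotypes.

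The cluster is silenced on the paternal chromosome by the long non-coding RNA *Kcnq1ot1*. The brightest *Kcnq1ot1* probe read 1.70 on the WT array and 1.42 on the array labelled *Dyrk2*-/- at E8.5, then 1.89 and 1.88 at E10.5. Its probes disagreed between genotypes at E8.5, with log2 ratios of −0.29, −2.04, 0.36 and −0.90 from the brightest to the dimmest. At E10.5 the same 4 probes gave −0.00, −0.43, 0.10 and 0.23. No single direction for *Kcnq1ot1* at E8.5 can be read from them.

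Of the 10 members, 8 were found in the table of RefSeq promoters (GRCm38.p6), with 15 start sites in all. The 250 bases before the *Phlda2* start are shown because it was the member that changed most. They lie at chr7:143502525-143502774 on the minus strand and hold 21 CpG dinucleotides, more than 83.7% of all promoters of that length. The letters TATAAA were searched on both strands and were found once, 30 bases before the start, marked in capitals.
Phlda2 promoter: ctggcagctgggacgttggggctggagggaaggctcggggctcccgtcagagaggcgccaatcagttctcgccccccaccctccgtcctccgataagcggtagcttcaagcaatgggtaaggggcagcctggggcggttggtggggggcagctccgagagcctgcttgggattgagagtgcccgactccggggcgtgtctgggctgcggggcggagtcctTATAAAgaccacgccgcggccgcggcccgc
These letters were in 12.4% of 32851 promoters and in 2 of the 15 start sites of the members, those of *Phlda2* and of *Meg3*. A match of letters is a description of the sequence.

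*Grb10* encodes an adaptor that binds insulin and IGF receptors and dampens their signal. By its brightest probe, *Grb10* read 2.31 on the WT array and 2.33 on the array labelled *Dyrk2*-/- at E8.5, then 2.70 and 2.52 at E10.5. All 3 of its probes were higher at E10.5 in both genotypes, by log2 ratios between 0.12 and 0.47, and none passed limma for the day. For the brightest probe the difference was 0.29 ± 0.12 SE with an adjusted p of 0.0957. Its cluster neighbours *Ddc* and *Cobl* gave stage ratios of −0.83 and 0.02 in WT and −0.44 and −0.01 in the other pair. The second *Ddc* probe had the opposite sign, with 0.73 and 1.15.

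*Dlk1*, read from the paternal copy of a cluster on chromosome 12, encodes a membrane protein related to Notch ligands that holds precursor cells undifferentiated. Its brightest probe read 5.36 on the WT array and 5.58 on the array labelled *Dyrk2*-/- at E8.5, then 6.25 and 6.37 at E10.5. Its other probe read 2.30 and 3.02 at E8.5, then 3.72 and 3.76 at E10.5. On both probes the E10.5 values lay above the E8.5 values in each genotype, and limma called both rises (0.84 ± 0.11 SE, adjusted p = 0.000547, and 1.07 ± 0.16 SE, adjusted p = 0.0011). With spike-in scaling the stage ratios of the brightest probe were 0.82 in WT and 1.42 in the other pair, beside the reported 0.89 and 0.79. The limma adjusted p of the probes was then 0.552 and 0.308, the highest of the alternatives. Between genotypes at E8.5 the brightest probe gave a log2 ratio of 0.22 and the other 0.72, and the first turned to −0.33 with spike-in scaling. At E10.5 they gave 0.12 and 0.04.

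*Meg3*, a non-coding RNA read from the maternal copy of the same cluster, is thought to keep *Dlk1* silent on that chromosome. Its brightest probe read 5.84 on the WT array and 5.79 on the array labelled *Dyrk2*-/- at E8.5, then 5.68 and 5.77 at E10.5. The widest difference between any arrays was the stage ratio in WT, −0.152 on the log2 scale. For the day, limma gave a difference of −0.09 ± 0.11 SE (adjusted p = 0.587). The sign of the *Meg3* stage ratio changed in 4 of 6 alternatives in each genotype. With spike-in scaling the ratio was 0.62 in the pair labelled *Dyrk2*-/-, and the genotype ratio at E8.5 was −0.59, both past 1.5-fold. None of the 4 dimmer probes passed limma either, with day differences between −0.14 and 0.37.

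The *Meg3* probes gave unlike genotype ratios at E8.5, from −0.34 to 0.43, and from −0.32 to 0.11 at E10.5. The probes with the lowest and highest ratio at E8.5 are shown with the brightest, since they read places far apart in the annotated transcript unit. On the plus strand of mm9 they lie at chr12:110799833-110799892 (ratio −0.34), chr12:110809678-110809737 (ratio 0.43) and chr12:110783470-110783529 (ratio −0.04).
Meg3 lowest ratio: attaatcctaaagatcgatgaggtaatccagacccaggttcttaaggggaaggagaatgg
Meg3 highest ratio: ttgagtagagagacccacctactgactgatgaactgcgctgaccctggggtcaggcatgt
Meg3 brightest probe: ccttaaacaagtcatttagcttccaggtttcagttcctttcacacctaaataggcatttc
The probe with the highest ratio read 4.63 and 5.06 at E8.5, then 4.73 and 4.74 at E10.5. The probe with the lowest ratio read 2.09 and 1.75 at E8.5, then 1.88 and 1.78 at E10.5. The neighbouring non-coding RNAs of the cluster, *Rian* and *Mirg*, gave genotype log2 ratios of 0.00 and −0.14 at E8.5, then 0.29 and 0.17 at E10.5. *Mirg*, which hosts microRNAs, was lower at E10.5, with stage ratios of −0.74 in WT and −0.43 in the other pair. *Rtl1*, a gene derived from a retrotransposon, was well above background on no array, and *Dio3*, which encodes an enzyme that inactivates thyroid hormone, gave stage ratios of −0.76 and −0.37.

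*Peg3*, read from the paternal copy, encodes a large zinc-finger protein with roles in growth and maternal care. Its brightest probe read 3.94 on the WT array and 3.87 on the array labelled *Dyrk2*-/- at E8.5, then 4.07 and 3.94 at E10.5. These values lay within 0.20 of each other. Both E10.5 values were slightly above both E8.5 values, and the WT array was the higher of each pair. Spike-in scaling gave a genotype ratio of −0.61 at E8.5, and a stage ratio of 0.71 in the pair labelled *Dyrk2*-/-, both past 1.5-fold. Its dimmer probes read 2.53 and 3.06, then 3.15 and 3.14, and −3.93 and −3.04, then −3.44 and −3.29. On both of them the WT array at E8.5 was the lowest of the 4, with genotype ratios of 0.53 and 0.89 there, where the brightest probe gave −0.07. Of its cluster, *Zim1* gave stage ratios of 0.93 in WT and 0.67 in the other pair, and *Usp29* gave 0.39 and 0.31.

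*Mest*, also called *Peg1*, encodes an enzyme-like protein of mesoderm and its derivatives. On its brightest probe the level was 5.63 on the WT array and 5.82 on the array labelled *Dyrk2*-/- at E8.5, then 5.52 and 5.58 at E10.5. The array labelled *Dyrk2*-/- was higher at both stages on all 3 probes above background, by log2 ratios between 0.19 and 0.45 at E8.5 and between 0.00 and 0.23 at E10.5. For the brightest probe that sign turned with spike-in scaling and without scaling at E8.5, and without scaling at E10.5. The remaining *Mest* probe, at chr6:30682562-30682621 of mm9, gave no signal well above background and was left out of every ratio. Its neighbours *Copg2* and *Klf14* gave stage ratios of 0.02 and −1.03 in WT and −0.21 and −1.60 in the other pair.

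**Figure D3:**
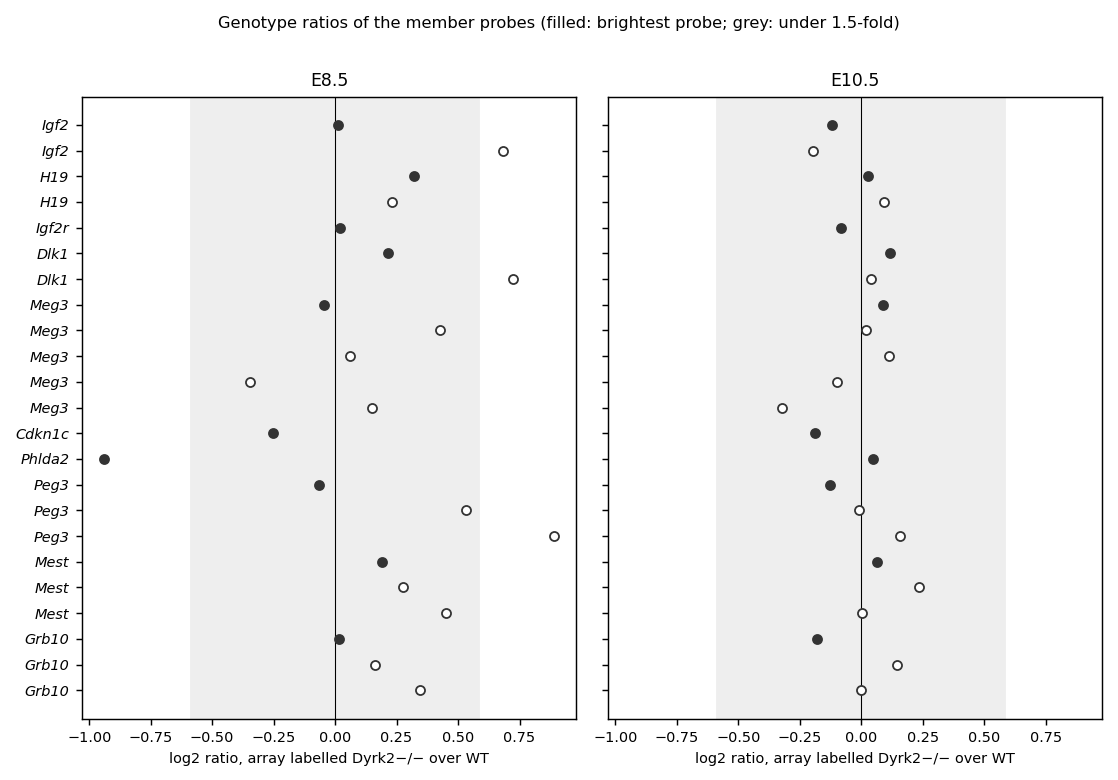
Log2 ratio of the array labelled *Dyrk2*-/- over the WT array (horizontal axis) at E8.5 and E10.5 for the 23 member probes above background, 1 row per probe with filled points for the brightest probe of each gene and a grey band for under 1.5-fold. At E8.5 the points run from −0.94 to 0.89, and at E10.5 from −0.32 to 0.23.

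Probes of the same gene thus disagreed mainly at E8.5. Of the 7 members with several probes, 3 had genotype ratios at E8.5 that spanned more than 1.5-fold between probes, *Igf2*, *Meg3* and *Peg3*, beside 16.8% of 6836 genes with several probes. At E10.5 it was 0 of 7, beside 8.31% of 7120 genes. The number of probes per gene, with which such a span can grow, was not matched. *Meg3* had 5 probes and *Peg3* 3, 1 of them dim, at −3.93 on the WT array at E8.5. Of the 23 member probes, 18 had a positive ratio at E8.5 and 13 had one at E10.5, beside 49.0% and 51.4% of all probes. At the earlier stage, 3 probes were higher by 1.5-fold or more, beside 5.51% of all probes, those being dimmer probes of *Igf2*, *Dlk1* and *Peg3*. For each of them the brightest probe of the gene did not reach that size, so no rise of the gene is read from them. The cause of the disagreement was not tested.

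Other imprinted genes were counted in the same way. The copy each gene is read from was taken as listed, here and for the members. Total RNA on these arrays does not tell the parental alleles apart. Of 58 on the array, 54 were measured at E8.5, of which the array labelled *Dyrk2*-/- had 2 higher and 3 lower, a share of 9.26% beside 11.7% of all genes. At E10.5, 2 were higher and 2 lower of 53, a share of 7.55% beside 7.73%. With spike-in scaling the E8.5 counts were far from these, with 0 higher, 13 of 24 genes read from the paternal copy lower, and 11 of 30 read from the maternal copy lower, beside 47.6% of all genes. *Tspan32* was higher and *Nap1l5*, a gene of the nucleosome assembly family, was lower at both stages. With normexp correction 0 genes read from the maternal copy were higher at E8.5, and 0 read from the paternal copy were lower at either stage. At E8.5 1.30% of all genes were then higher and 1.65% lower. With spike-in scaling 0 paternal genes were lower at E10.5. Under these alternatives neither gene was called at both stages. *Tspan32* read −4.39 and −3.33 at E8.5, then −0.79 and −0.06 at E10.5, with log2 ratios of 1.06 and 0.73, alongside the higher blood markers on these arrays. *Nap1l5* read −2.92 and −3.58 at E8.5, then −2.0 and −2.64 at E10.5, with log2 ratios of −0.66 and −0.63. *Plagl1*, a zinc-finger regulator of other imprinted genes, was higher at E8.5 only, with a ratio of 0.60. *Pon2* was lower at E8.5 by its brightest probe, with −0.94, while its next probe gave 0.14.

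With stage, 15 of the 54 other imprinted genes were higher and 12 lower in WT, and 13 higher and 8 lower in the pair labelled *Dyrk2*-/-. These totals of 27 and 21 of 54 stand beside 36.4% and 31.5% of all genes. With spike-in scaling the pair labelled *Dyrk2*-/- had 12 of 24 paternal genes higher and 0 lower, and 18 of 30 maternal genes higher and 4 lower, beside 50.1% of all genes higher. Among genes listed as paternal, the largest rises in WT were those of *Nnat* and *Plagl1*. *Nnat*, a gene of differentiating neurons, gave log2 ratios of 1.46 and 1.12, and *Plagl1* gave 1.44 and 0.79. In the other pair *Nap1l5*, with 0.94, came between them. The falls included those of *Snrpn*, a splicing factor gene, with −1.16 and −0.99, of *Slc38a4*, an amino acid transporter gene, with −1.14 and −1.05, and of *Magel2*, with −0.83 and −1.01. Among genes listed as maternal, *Tspan32* rose most in both genotypes, followed in WT by *Th* and *Asb4*. *Th*, which encodes tyrosine hydroxylase of catecholamine synthesis, gave 3.14 and 2.08, and *Asb4* gave 1.77 and 1.5. In the other pair *Dcn*, with 2.48, came before *Th*. *Plagl1* and *Dlk1* were thus higher at E10.5 in both genotypes, while the brightest probes of *H19* and *Mest* stayed within 1.5-fold.

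Of the genes for enzymes and zinc-finger proteins that set and keep imprints, 2 of 10 were higher and 3 lower at E10.5 in WT, and 1 of 9 was higher and 3 lower in the other pair, beside 36.4% and 31.5% of all genes in either direction. *Dnmt3b*, a methyltransferase of the early embryo, read 5.54 on the WT array and 5.18 on the array labelled *Dyrk2*-/- at E8.5, then 3.22 and 3.37 at E10.5. *Zfp57*, which protects imprints after fertilisation, rose by 1.01 and 0.55. The brightest probe of *Dnmt3a* rose by 2.18 and 1.52, but its other probe gave 0.03 and −0.19. *Dnmt1*, the maintenance methyltransferase, gave 0.22 and −0.20, *Ctcf*, which binds the control region of *Igf2* and *H19*, gave −0.22 and −0.26, and *Trim28*, the partner of ZFP57, gave −0.01 and −0.50, with −0.75 and −0.71 on its other probe. Of the 10 genes measured at E8.5, 0 were higher and 1 was lower on the array labelled *Dyrk2*-/-, beside 5.14% and 6.52% of all genes. With spike-in scaling 4 were lower, beside 47.6%. The 1 gene lower in the reported count, *Dppa3*, a germ cell gene, was well above background on the WT array at E8.5 alone.

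The patterns of *Igf2* and *H19* over the 4 arrays were compared with those of 18806 genes above background on all of them, by the distance between log2 values centred on each gene's mean. The genes nearest to *Igf2* were *Zfp423*, *Smarcc2* and *D630045J12Rik*, at distances of 0.012, 0.013 and 0.018. Those nearest to *H19* were *Podn*, *Cpa4* and *Clmn*, at 0.014, 0.017 and 0.022. Distances over only 4 arrays say nothing of shared function.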

How the data were processed

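For each array the authors deposited its scanner file, in which the processed intensity is linear, has its background subtracted and is unscaled between arrays, besides a table of linear intensities that they had scaled. Feature Extraction is version 10.7.1.1 in the file headers and 9.5.1.1 in the submitters' processing notes. Spots of a probe were averaged on the log2 scale, leaving out outlier and control spots, and each array's 75th percentile was subtracted. No spot was saturated. On each array 32908 to 34616 of 59305 spots were well above background, and precision is limited by how few arrays there are. Each gene was read from its probe with the highest mean over the 4 arrays, for genes other than the members only from probes annotated to the gene's chromosome. A ratio needed a signal well above background on 1 or both arrays of the pair. With 1 such array, it is a bound against the dimmer array's value or, if higher, the lowest signal that array had well above background. Counts, shares and medians over genes took the values as read, without that bound, unless bounds are named. Members were found by the array's gene name, other genes by symbols updated from GRCm38.p6 (32994 of 56605 probes matched by accession). Positions of probes follow the array's own annotation, build mm9.

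All 10 members were named with their probes. Of the other lists, counts were given with the genes that changed the same way at both stages or changed most, and genes of a member's cluster were named for their position. The members and lists were chosen with earlier results of these data known. The 1.5-fold threshold is the one the study used to select probes, and its methods also give a Z-score beyond 2 in either direction for the gene ontology step. limma 3.58.1 (R 4.3.3) was fitted to day and genotype with an intensity trend, over the probes that 2 or more arrays measured well above background, with p-values adjusted by Benjamini-Hochberg, and was tested on simulated data. Tables and figures used Python 3.11.15, pandas 2.3.3 and matplotlib 3.10.9. Alternatives were quantile normalization, normexp (offset 50), spike-in scaling, no scaling, the deposited table, filters on dim probes, the mean of a gene's probes, a 2-fold threshold and eBayes without trend.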

Additional observations from a re-analysis of the deposited data

Results flagged for a closer look

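Among the imprinted genes and the genes of growth factor signalling, cell-cycle inhibition and imprint maintenance, *Dcn* and *Insr* had genotype ratios of opposite sign at the 2 stages, each larger than 95% of the differences between spots of a probe. *Dcn*, which encodes a small matrix proteoglycan, read 0.15 on the WT array and −0.51 on the array labelled *Dyrk2*-/- at E8.5, a log2 ratio of −0.65, then 1.43 and 1.97 at E10.5, a ratio of 0.55. *Insr*, the insulin receptor, read −2.50 and −1.96 at E8.5, a ratio of 0.55, and −1.81 and −2.38 at E10.5, a ratio of −0.56. With spike-in scaling the E8.5 ratio of *Insr* was −0.00, so its opposite signs were not seen there. With normexp correction the *Insr* ratios were 0.37 and −0.29, both inside the spread of spots. Without scaling its E8.5 ratio of 0.29 was inside that spread too. The opposite signs of *Dcn* held under each scaling tried. Each rests on 1 probe and 1 array per group, and the difference between the stages was not tested.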

How the results depend on the processing

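The count of changed members was within 1.5 times its reported value, or equal to it, in all other cases than these. At E8.5 the 1 member that differed between genotypes became 4 with spike-in scaling, all lower on the array labelled *Dyrk2*-/-, and 0 at 2-fold. Between stages the 3 members became 1 at 2-fold in WT, and 7 with spike-in scaling and 1 at 2-fold in the pair labelled *Dyrk2*-/-. With limma, the 0 member probes for the genotype became 1 without scaling, and the 5 for the day became 1 with spike-in scaling and 11 without scaling. A 2-fold threshold calls fewer genes by construction, and for the other alternatives the cause was not tested. The limma counts with spike-in scaling and without scaling have no share of all probes beside them, so they are no result about the members. At E10.5 the count between genotypes was 0 under every alternative. No called ratio changed its sign in the 240 recomputed ratios of single members, of which 129 moved by less than the typical standard deviation between spots of a probe, combined over both arrays (0.11 to 0.15), and 111 by more. Most were not called, and 24 of the 40 member ratios changed sign under at least 1 alternative. For the 3 members with a single probe, the mean of a gene's probes gave the same ratio by construction. Signal near background limits *Phlda2* at E10.5 and the dimmest probes of *Peg3* and *Mest*. Each group has 1 array, so the only pairing was that of the genotypes within a stage, which the limma fit of day and genotype uses. Leaving out an array would leave that fit with no residual degree of freedom.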
